A study of Mus musculus with 14 samples.

Results

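The genes described here are 10 genes of the canonical Wnt pathway that encode its transcription factors, its direct targets and its feedback inhibitors: Lef1, Tcf7, Tcf7l1, Sp5, Axin2, Nkd1, Rnf43, Notum, Sfrp1 and Sfrp5. They were chosen by name as pathway members, and they are 10 of the 24054 genes in each table of the series.

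Wnt proteins are secreted ligands that bind Frizzled and Lrp receptors at the cell surface. Binding stalls a cytoplasmic destruction complex, so that beta-catenin accumulates, enters the nucleus and joins Tcf/Lef factors on the enhancers of target genes. Several of these targets encode inhibitors of the pathway itself and so form negative feedback loops. In the early mouse embryo Wnt signalling is required for the primitive streak, from which mesoderm and endoderm arise, and in embryonic stem cells (ESCs) Tcf7l1 represses pluripotency genes.

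RNA was sequenced from 14 libraries of mouse ESCs and ESC-derived endoderm, to ask which genes depend on the transcription factor Foxa2 and which respond to it. The d0con and d0ko groups (2 libraries each) were undifferentiated ESCs of the genotypes Foxa2-Venus-KO/+ and Foxa2-Venus-KO/Foxa2-Venus-KO, grown on red-fluorescent fibroblast feeders without LIF and sorted by fluorescence-activated cell sorting (FACS) as Cherry-negative cells at day 0. The d3con and d3ko groups (3 libraries each) were cells of the same 2 genotypes after 3 days on feeder cells that make Wnt3a, with 12 ng/ml Activin A, sorted as Venus-positive cells. Every con and ko line thus carries at least 1 Foxa2 allele in which Venus stands in place of Foxa2, and all day 3 cells received Wnt3a. The d2-FVFn and d2-FVFp groups (2 libraries each) came from another line, TetON-Foxa2-Venus, kept without feeders in LIF and serum with 40 ng/ml doxycycline for 48 h and sorted as Venus-negative and Venus-positive cells. Both doxycycline groups received the drug, and the Venus-negative cells are those without visible transgene product. Each genotype of the day 0 and day 3 series was represented by 2 clones. In both day 3 groups, replicates 1 and 3 came from 1 clone and replicate 2 from the other.

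Library totals lay between 14142788 and 27278237 expected counts. Foxa2, the targeted gene, was at 34.8 to 58.6 TPM (RNA level per gene length, scaled to the library total) in d3con, at 0.11 to 0.19 TPM in d3ko, at 2.01 and 2.99 TPM in d2-FVFn and at 160 and 169 TPM in d2-FVFp. The labelled endoderm was checked with 6 definitive endoderm markers, which summed to 760 to 1278 TPM in d3con and to 29 to 141 TPM in d3ko. The 6 pluripotency markers summed to 562 to 985 TPM in d3con, to 13787 to 15663 TPM at day 0, and in d3ko to 15431, 2668 and 17364 TPM in replicates 1, 2 and 3. The d3ko libraries thus stood apart from each other, and replicates 1 and 3 had pluripotency marker sums within or above the day 0 range. Most of each day 0 sum was 1 of the 6 markers, Dppa5a (11377 to 13310 TPM at day 0 and 1866 to 15543 TPM in d3ko). Single markers differed from the sum. Zfp42 was lower in d3ko (40 to 400 TPM) than at day 0 (482 to 575 TPM), and Klf4 spread from 5.74 to 55.1 TPM in d3ko, against 17.7 to 27.9 TPM. The 10 fibroblast feeder markers summed to 71.1 to 523 TPM in d3con and to 156 to 476 TPM in d3ko, against 21.7 and 22.4 TPM in d0con, 46.6 and 159 TPM in d0ko and 4.7 to 7.2 TPM in the feeder-free doxycycline libraries. These are bulk samples, in which fewer cells of a type and less RNA per cell cannot be told apart.

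Promoter windows, from 250 bases before to 50 bases after an annotated RefSeq start (GRCm38.p6), were searched on both strands for the core Tcf/Lef motif CTTTGA and for 2 forkhead motifs, TGTTTAC and TATTTAC, which do not overlap it. Windows were found for 8 of the 10 genes, with 13 windows in all. Among these 13, the Tcf/Lef core lay in 1 window of Sp5 and in 1 of Lef1, and 16% of all 32851 windows hold it. A forkhead motif lay in 1 of the 13, a window of Tcf7, against 6.54% of all windows with either forkhead motif. Counted by window, neither motif stood out from its share of all windows. The Sp5 window (chr2:70474673-70474972, plus strand) holds the core 2 times and belongs to a gene that rose in both genotypes. One of the 4 Lef1 windows, at an internal start (chr3:131156044-131156343, plus strand), holds its reverse complement TCAAAG 2 times. The Sfrp5 window (chr19:42202203-42202502, minus strand) holds none of the 3 motifs and is shown because Sfrp5 had the greatest difference between the day 3 genotypes. Capitals mark the Tcf/Lef core on either strand, and a match describes letters in the window and not a bound site.
Sp5: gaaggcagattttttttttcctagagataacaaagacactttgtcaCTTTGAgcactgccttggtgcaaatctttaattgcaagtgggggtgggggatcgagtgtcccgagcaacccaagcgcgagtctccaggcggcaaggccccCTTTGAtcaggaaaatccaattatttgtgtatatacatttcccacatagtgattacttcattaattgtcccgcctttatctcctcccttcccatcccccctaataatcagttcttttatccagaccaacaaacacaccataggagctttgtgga
Lef1: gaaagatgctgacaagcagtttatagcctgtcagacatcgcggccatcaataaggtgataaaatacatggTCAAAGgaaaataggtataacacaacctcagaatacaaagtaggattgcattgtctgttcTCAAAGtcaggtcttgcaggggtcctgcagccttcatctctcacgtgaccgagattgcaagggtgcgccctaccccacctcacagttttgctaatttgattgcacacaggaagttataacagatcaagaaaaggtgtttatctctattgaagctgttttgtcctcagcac
Sfrp5: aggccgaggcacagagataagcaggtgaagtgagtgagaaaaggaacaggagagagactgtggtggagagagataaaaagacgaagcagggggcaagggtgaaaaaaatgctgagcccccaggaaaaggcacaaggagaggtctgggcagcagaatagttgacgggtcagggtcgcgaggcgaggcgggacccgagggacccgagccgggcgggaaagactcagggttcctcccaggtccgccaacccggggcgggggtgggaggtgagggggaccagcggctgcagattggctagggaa

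The levels of the 10 genes spread widely in undifferentiated cells. In d0con the highest was Tcf7l1 at 54.4 ± 6.1 TPM (SD, n = 2), above all others in both libraries. Notum (24.9 ± 4.37 TPM), Lef1 (19.3 ± 3.61 TPM), Sfrp1 (18.4 ± 4.43 TPM) and Tcf7 (14.8 ± 2.64 TPM) came next, and neighbours in this order did not differ beyond their spread. Sp5 (4.71 ± 2.92 TPM) and Axin2 (3.35 ± 0.912 TPM) were lower and overlapped each other, and Sfrp5, Nkd1 and Rnf43 were all under 1 TPM. In d3con the order was another one. Sfrp1 (164 ± 81.2 TPM, n = 3), Sfrp5 (134 ± 81.8 TPM) and Sp5 (74.9 ± 9.5 TPM) had the highest means and overlapped, with Sp5 above Sfrp5 in replicate 2, and Notum was lowest at 0.46 ± 0.295 TPM. In d3ko Sp5 (57.4 ± 29.7 TPM) and Lef1 (40.5 ± 19.2 TPM) had the highest means, within each other's spread, while Sfrp5 stood at 5.43 ± 3.89 TPM.

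**Figure D1:**
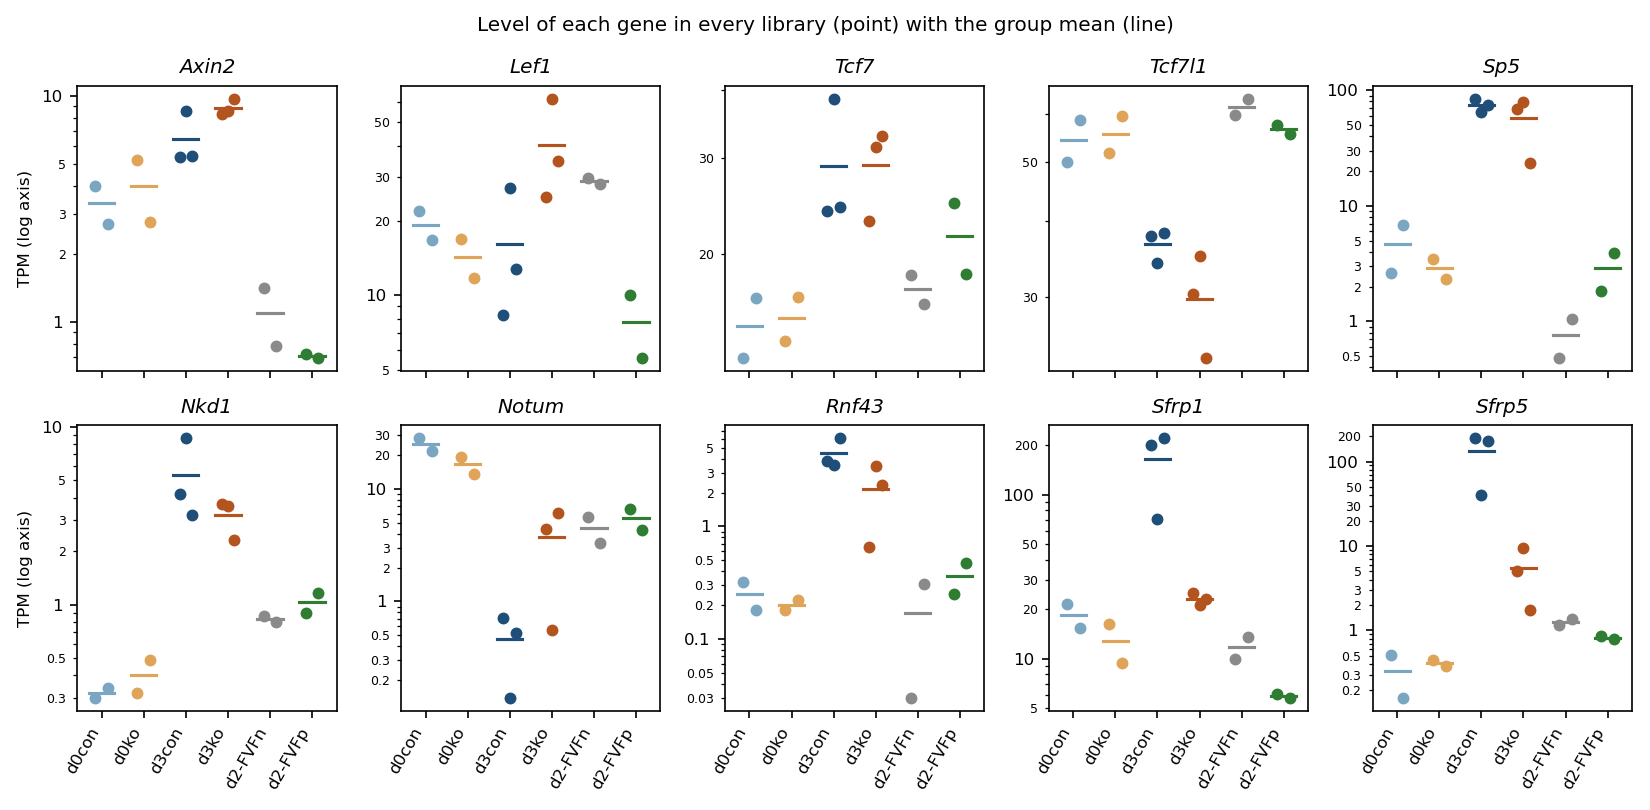
TPM of each of the 10 genes (log axis, scaled separately for each gene) in the 6 groups, with a point per library and a line at the group mean. Sfrp1 and Sfrp5 are far higher in d3con than in any other group, Notum is lowest in d3con, and Lef1 is higher in d2-FVFn than in d2-FVFp.

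The first comparison asked how the 10 genes changed over 3 days of differentiation in control cells. With edgeR's quasi-likelihood test (a gene is called at a Benjamini-Hochberg adjusted p under 0.05 over all tested genes and an absolute log2 fold change over 1), 5 of the 10 rose from d0con to d3con, against 20.6% of all 13899 tested genes. One, Notum, fell, against 14.6% of all tested genes. In the knockout, 4 of 10 rose from d0ko to d3ko, against 11.6% of tested genes, and 2 fell, against 5.72%. The median log2 fold change of the 10 was 1.86 in control cells and 1.15 in knockout cells, beside 0.07 over all tested genes in each. Feeder markers moved over the same days, with 5 of 9 tested fibroblast markers called higher in d3con than in d0con and 1 of 9 in d3ko than in d0ko, and their part in the changes of the 10 genes was not tested.

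Among the Tcf/Lef factors, Tcf7l1 (chromosome 6, 72626371 to 72789045), the repressor-type Tcf of ESCs, was at 50.1 and 58.8 TPM in d0con and at 37.8, 34.2 and 38.2 TPM in d3con. In d0ko it was at 51.8 and 59.7 TPM and in d3ko at 30.4, 35.1 and 23.8 TPM. All day 3 libraries lay below all day 0 libraries. The log2 fold change was -1.08 ± 0.18 (SE) in the knockout (adjusted p = 0.0034 by edgeR), and in control cells -0.77 ± 0.18 (adjusted p = 0.00617), where it passed the p threshold but not that on fold. The knockout call was lost in 5 of 18 alternatives, among them leaving out d0ko replicate 2 or d3ko replicate 3, where the fold did not pass its threshold (adjusted p = 0.0365 and 0.00353).

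Tcf7 (chromosome 11, 52246527 to 52283383), an activator-type Tcf, was at 12.9 and 16.6 TPM in d0con and at 24, 38.5 and 24.4 TPM in d3con. It was at 13.9 and 16.7 TPM in d0ko and at 23, 31.5 and 33 TPM in d3ko. The day 3 libraries lay above the day 0 libraries in both genotypes, with a log2 fold change of 0.76 ± 0.26 in each (edgeR adjusted p = 0.0334 in control and 0.0501 in knockout cells), which is under the fold threshold.

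Lef1 (chromosome 3, 131110297 to 131224357), the other activating partner of beta-catenin among the 10, was at 21.8 and 16.7 TPM in d0con and at 8.28, 27.1 and 12.7 TPM in d3con. It was at 16.9 and 11.7 TPM in d0ko and at 25, 62 and 34.7 TPM in d3ko. The control groups overlapped, and every d3ko library lay above both d0ko libraries. The edgeR log2 fold change was -0.50 ± 0.48 in control cells (adjusted p = 0.399) and 1.32 ± 0.51 in knockout cells (adjusted p = 0.0766), so neither was called. The knockout change was called by DESeq2 (adjusted p = 0.0251) and by edgeR without both 75-base libraries (adjusted p = 0.0437), and without both day 3 libraries numbered 2 the control change was called lower (log2 fold change -1.09, adjusted p = 0.00977). That last setting leaves a single clone in each day 3 group.

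Sp5 (chromosome 2, 70474923 to 70477726) encodes a zinc finger factor and is a direct target of beta-catenin. It was at 2.64 and 6.77 TPM in d0con and at 84.1, 65.1 and 75.3 TPM in d3con. In d0ko it was at 3.47 and 2.34 TPM and in d3ko at 69.5, 79.2 and 23.5 TPM. Day 3 lay above day 0 throughout, and the lowest day 3 value was that of d3ko replicate 3. It rose in both genotypes, with edgeR log2 fold changes of 3.80 ± 0.60 (adjusted p = 0.00115) in control and 4.12 ± 0.62 (adjusted p = 0.00244) in knockout cells, and both calls were made under each alternative run.

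Axin2 and Nkd1 are intracellular feedback inhibitors. Axin2 (chromosome 11, 108917828 to 108950783), a scaffold of the destruction complex, was at 3.99 and 2.7 TPM in d0con and at 5.39, 8.59 and 5.4 TPM in d3con. In d0ko it was at 5.23 and 2.76 TPM and in d3ko at 8.35, 8.62 and 9.71 TPM. No day 3 library of a genotype overlapped its day 0 libraries, yet the edgeR log2 fold changes of 0.74 ± 0.34 (adjusted p = 0.0961) and 0.98 ± 0.34 (adjusted p = 0.0571) were not called. The knockout change, close to both thresholds, was called in 4 of 18 alternatives, with adjusted p between 0.0284 and 0.0493. Nkd1 (chromosome 8, 88521342 to 88594887), which binds Dishevelled, was at 0.3 and 0.34 TPM in d0con and at 4.17, 8.61 and 3.21 TPM in d3con. It was at 0.32 and 0.49 TPM in d0ko and at 3.66, 3.58 and 2.32 TPM in d3ko. Nkd1 rose by a log2 fold change of 3.85 ± 0.54 (edgeR adjusted p = 0.000677) in control and 2.80 ± 0.51 (adjusted p = 0.00499) in knockout cells, and the knockout call was lost without d0ko replicate 1 (adjusted p = 0.0646).

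Rnf43 and Notum act on receptors and ligands. Rnf43 (chromosome 11, 87663087 to 87735539), a ubiquitin ligase that removes Frizzled from the cell surface, was at 0.32 and 0.18 TPM in d0con and at 3.8, 3.52 and 6.05 TPM in d3con. It was at 0.18 and 0.22 TPM in d0ko and at 0.66, 3.42 and 2.34 TPM in d3ko. It rose in control cells by a log2 fold change of 3.92 ± 0.71 (edgeR adjusted p = 0.00203) and in knockout cells by 3.24 ± 0.69 (adjusted p = 0.00947), the latter lost in 4 of 18 alternatives, among them leaving out d0ko replicate 1 (adjusted p = 0.0908) or replicate 2 (0.0677).

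Notum (chromosome 11, 120653788 to 120661193) encodes a secreted enzyme that removes the lipid group Wnts need for activity. It was at 28 and 21.8 TPM in d0con and at 0.72, 0.14 and 0.52 TPM in d3con. In d0ko it was at 19.3 and 13.6 TPM and in d3ko at 4.41, 0.56 and 6.15 TPM. It was thus the one feedback gene of the 10 that was high at day 0 and low at day 3. In the doxycycline ESCs Notum was at 5.61 and 3.3 TPM in d2-FVFn and at 6.64 and 4.28 TPM in d2-FVFp. It fell by 5.92 ± 0.89 on the log2 scale in control cells (edgeR adjusted p = 0.000922) and by 2.30 ± 0.75 in knockout cells (adjusted p = 0.0461). The knockout call was lost in 7 of 18 alternatives, among them leaving out d0ko replicate 1 (adjusted p = 0.212), d0ko replicate 2 (0.111) or d3ko replicate 1 (0.0824).

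Sfrp1 and Sfrp5 encode secreted proteins that bind Wnts through a Frizzled-like domain. Sfrp1 (chromosome 8, 23411383 to 23449632) was at 21.6 and 15.3 TPM in d0con and at 201, 71 and 220 TPM in d3con. It was at 16.2 and 9.35 TPM in d0ko and at 25, 21.3 and 23.2 TPM in d3ko. Sfrp1 rose in control cells by a log2 fold change of 2.96 ± 0.49 (edgeR adjusted p = 0.00142), while in knockout cells the value was 0.69 ± 0.45 (adjusted p = 0.266). Sfrp5 (chromosome 19, 42197971 to 42202252) was at 0.51 and 0.16 TPM in d0con and at 188, 40.2 and 175 TPM in d3con. It was at 0.45 and 0.38 TPM in d0ko and at 5.05, 9.5 and 1.75 TPM in d3ko. Sfrp5 rose in both genotypes, by a log2 fold change of 8.42 ± 1.14 (edgeR adjusted p = 0.000589) in control and 3.50 ± 0.98 (adjusted p = 0.0266) in knockout cells. The knockout call was lost in 6 of 18 alternatives, among them leaving out d0ko replicate 1 (adjusted p = 0.143), d0ko replicate 2 (0.142) or d3ko replicate 2 (0.0618).

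**Figure D2:**
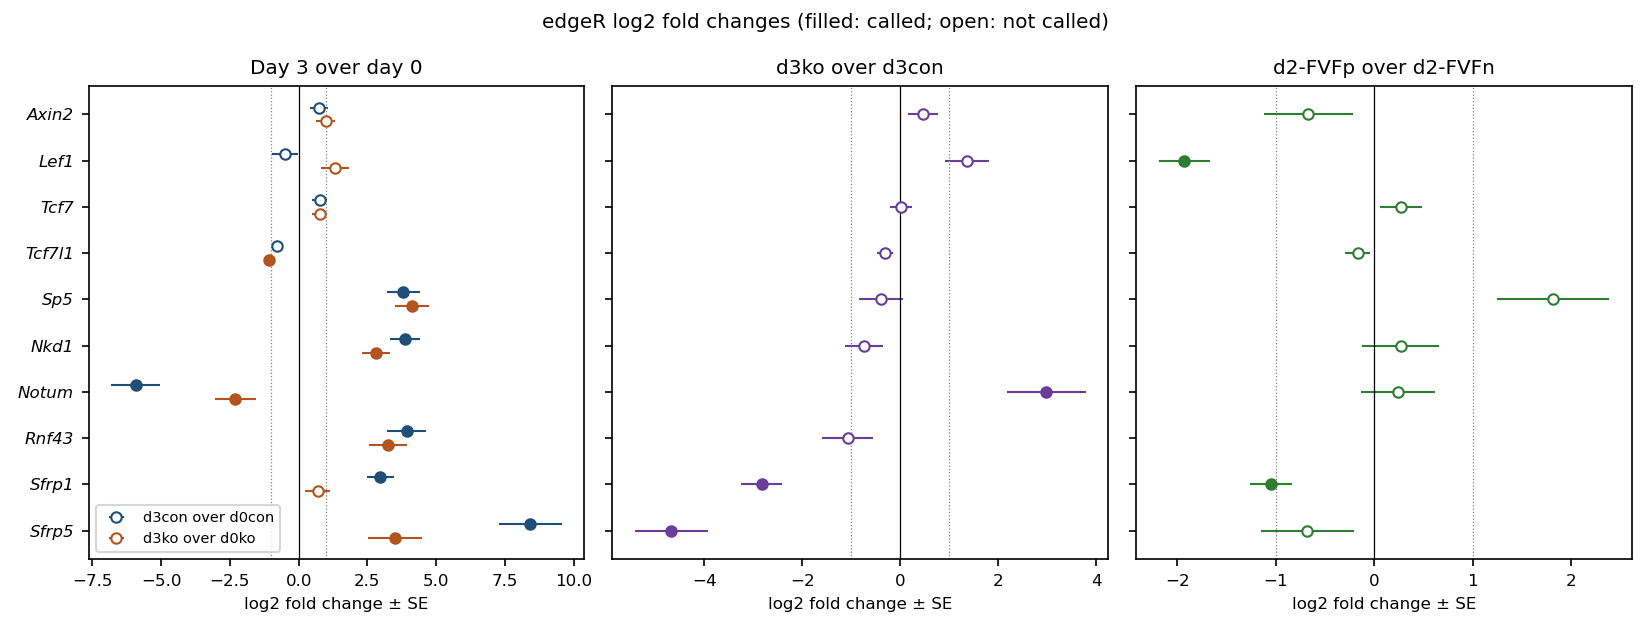
edgeR log2 fold changes (x axis, with SE bars) of the 10 genes in day 3 over day 0 for each genotype (left), d3ko over d3con (middle) and d2-FVFp over d2-FVFn (right); filled points were called, open points were not, and dotted lines mark the fold threshold. Sfrp5 shows the largest rise in control cells (8.42) and the largest deficit in the knockout (-4.67).

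The comparison of d3ko with d3con asked which of the 10 depended on Foxa2 at day 3. It shares its libraries with the comparisons over time. By edgeR, 1 of 10 was higher in d3ko, against 4.75% of all tested genes, and 2 of 10 were lower, against 3.51%. The median log2 fold change of the 10 was -0.36, beside 0.02 over all tested genes. Sfrp5 was lower by a log2 fold change of -4.67 ± 0.74 (adjusted p = 0.0107) and Sfrp1 by -2.83 ± 0.42 (adjusted p = 0.0105). For both genes every d3ko library lay below every d3con library, and the lowest d3con value was that of replicate 2. Notum was higher in d3ko by a log2 fold change of 2.98 ± 0.80 (adjusted p = 0.045), but d3ko replicate 2 (0.56 TPM) lay among the d3con libraries (0.14 to 0.72 TPM).

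These calls rest on 3 libraries from 2 clones in each group. With the libraries of a clone summed, no call was made, and the adjusted p was 0.107 for Sfrp1, 0.108 for Sfrp5 and 0.213 for Notum, with log2 fold changes of -2.67, -4.22 and 2.86. Over all genes this setting called 1 of 13666, against 1148 with the libraries kept separate, so the loss was not particular to these 3. All 3 calls were also lost without d3con replicate 3 (adjusted p = 0.052, 0.0589 and 0.147 in the same order) and without both 75-base libraries (0.126, 0.14 and 0.201), where 80 and 1 of all tested genes were called. A fit of the 2 groups alone lost the calls of Sfrp5 (adjusted p = 0.053) and Notum (0.147) and kept that of Sfrp1. It called 67 of all tested genes. The Notum call was lost in 11 of 18 alternatives, among them leaving out d3con replicate 1 (0.095), d3con replicate 2 (0.0874), d3ko replicate 1 (0.103) or d3ko replicate 3 (0.14).

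The other 7 genes were not called between the day 3 genotypes. Lef1 had a log2 fold change of 1.36 ± 0.44 (edgeR adjusted p = 0.082), with d3con replicate 2 (27.1 TPM) above d3ko replicate 1 (25 TPM). DESeq2 called it (adjusted p = 0.0156), as did edgeR without d3con replicate 2 (adjusted p = 0.0202). The latter setting leaves a single clone in d3con, so the spread between its clones is left out. Rnf43 had a log2 fold change of -1.07 ± 0.52 (adjusted p = 0.216) and Nkd1 of -0.74 ± 0.39 (adjusted p = 0.255). Axin2 (0.46 ± 0.30), Sp5 (-0.40 ± 0.45) and Tcf7l1 (-0.31 ± 0.16) had smaller log2 fold changes still, and that of Tcf7 was 0.01 ± 0.22.

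Marker levels of other cells moved with some of these values. The fibroblast marker sum was 523, 71.1 and 267 TPM in d3con replicates 1, 2 and 3, and Sfrp1 and Sfrp5 were lowest in the same replicate 2. That library also had the lowest definitive endoderm sum of d3con (760 TPM, against 1278 and 1204 TPM in replicates 1 and 3). Among the endoderm markers, Cer1 was at 544 to 548 TPM in all d3con libraries, while Dkk1, a secreted Wnt inhibitor, spread from 44.5 to 385 TPM. Sox17 (62.4 to 131 TPM), Gata4 (75.9 to 153 TPM) and Hhex (31.6 to 70.9 TPM) spread less than Dkk1. Replicate 2 also had the highest sum of 6 primitive streak and mesoderm markers (292 TPM, against 139 and 161 TPM). In d3ko the streak sum was likewise highest in replicate 2 (481 TPM, against 142 and 113 TPM), and Lef1 was highest in replicate 2 of both groups. In d3ko the fibroblast marker sum was 451, 156 and 476 TPM in replicates 1, 2 and 3, while Sfrp1 stayed between 21.3 and 25 TPM. Of the 10 fibroblast markers, 1 (Twist2) was under 1 TPM in every library of d3con and of d3ko, and none of the list was called between d3ko and d3con. Without both day 3 libraries numbered 2, an alternative chosen after seeing the data, the log2 fold change of Sfrp1 was -3.13 (edgeR adjusted p = 0.000272) and that of Sfrp5 -5.80 (adjusted p = 0.000187). Each day 3 group then held libraries of a single clone, so these p-values leave out the spread between clones at day 3. Notum was at 4.41 and 6.15 TPM in the d3ko libraries with pluripotency marker sums of 15431 and 17364 TPM, and at 0.56 TPM in the one with 2668 TPM. The day 0 libraries, with sums of 13787 to 15663 TPM, held 13.6 to 28 TPM of Notum. The doxycycline libraries, with sums of 4232 to 7908 TPM, held 3.3 to 6.64 TPM. The part of the feeder, endoderm, streak and pluripotency markers in the values of Sfrp1, Sfrp5, Lef1 and Notum was not tested.

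**Figure D3:**
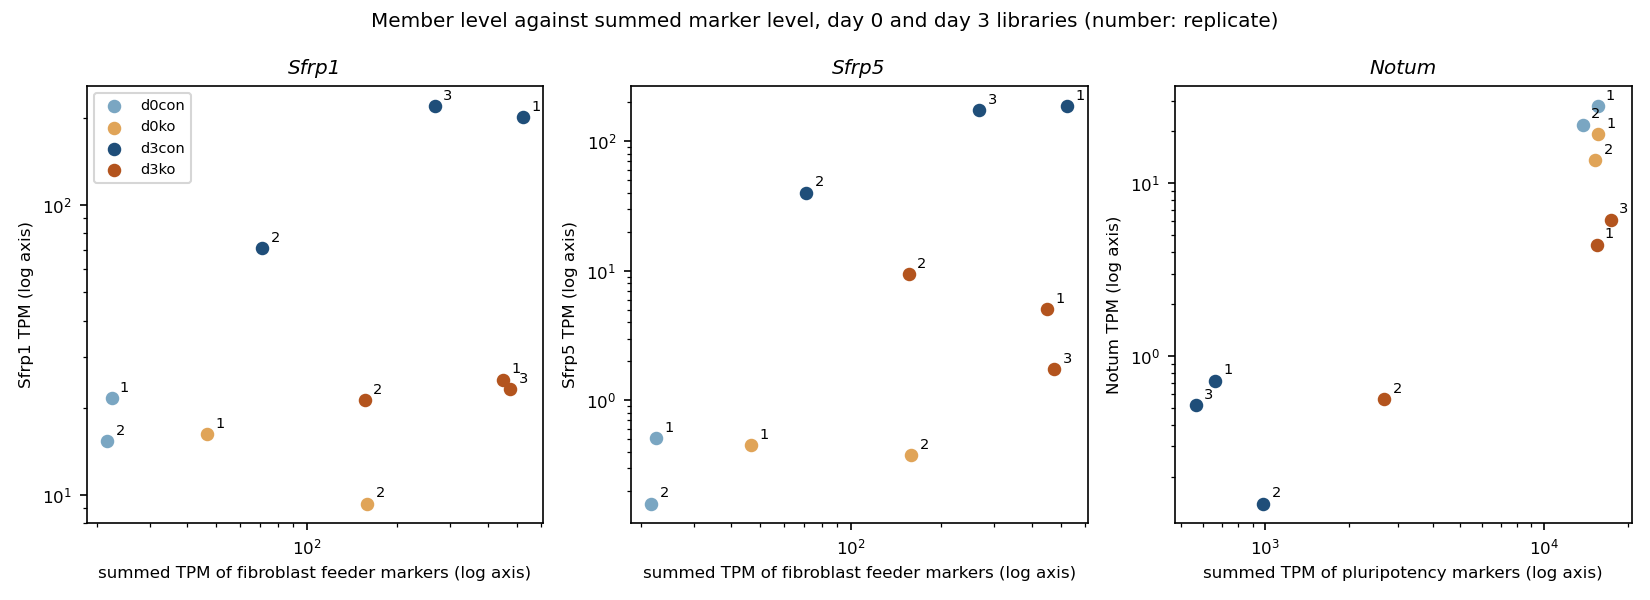
TPM of Sfrp1 and Sfrp5 against the summed TPM of 10 fibroblast feeder markers, and of Notum against that of 6 pluripotency markers (all axes log), in the day 0 and day 3 libraries, with replicate numbers. At fibroblast sums of 451 and 476 TPM the d3ko libraries hold 25 and 23.2 TPM of Sfrp1. The d3con libraries, at fibroblast sums of 71.1 to 523 TPM, hold 71 to 220 TPM of Sfrp1. Notum is lowest in the 4 day 3 libraries with the lowest pluripotency sums.

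Before differentiation the genotypes were compared in the same fit. In d0ko against d0con, 0 of 10 genes were called by edgeR, against 0% of all tested genes, and 0 of 10 had an unadjusted p under 0.05, against 1.40% of tested genes. DESeq2 also called 0 of 10, against 0.00719% of tested genes. The largest difference was that of Sp5, with a log2 fold change of -0.72 ± 0.60. With 2 libraries a group, standard errors of the 10 lay between 0.20 for Tcf7l1 and 1.33 for Sfrp5. The fibroblast marker sum was higher in both d0ko libraries than in d0con. By edgeR 0 of 9 tested markers were called, against 0% of all tested genes. Their median log2 fold change was 2.47, beside 0.02 over all tested genes. The unadjusted edgeR p was under 0.05 for Col1a1 (0.0225), Col1a2 (0.0114), Col3a1 (0.00791), Dcn (0.0182) and Lum (0.042). It lay between 0.0785 and 0.511 for Postn, Thy1, Fbn1 and S100a4.

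Whether the change over time differed between genotypes was tested as the genotype by day interaction. No member was called by edgeR, 0 of 10 against 0% of all tested genes. The targeted gene Foxa2 was not called either, with an interaction log2 fold change of -7.68 ± 0.87 (edgeR adjusted p = 0.0544). A missing call here thus does not show that the changes were alike. At an unadjusted p under 0.05 there were 4 of 10, against 13.2% of tested genes, and DESeq2 called 3 of 10 (Notum, Sfrp1 and Sfrp5), against 4.07%. The interaction log2 fold change, knockout minus control, was -4.91 ± 1.52 for Sfrp5 (edgeR adjusted p = 0.228), -2.27 ± 0.63 for Sfrp1 (adjusted p = 0.194), 3.62 ± 1.15 for Notum (adjusted p = 0.24) and 1.82 ± 0.69 for Lef1 (adjusted p = 0.303). A rise called in one genotype alone, as for Sfrp1, was therefore not shown by edgeR to differ between them. Leaving out d3con replicate 2 gave a call for Sfrp1 (adjusted p = 0.0168), leaving out d3ko replicate 2 gave one for Notum (adjusted p = 0.00859), and leaving out both gave a call for each of these 4 genes. Over all tested genes these 3 settings called 128, 1118 and 1628, so the gain was not particular to the 10 genes. Without its replicate 2 a day 3 group holds a single clone, so the spread between clones of that group is left out.

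The doxycycline series asked whether Foxa2 expression moves these genes in ESCs, without Wnt3a feeders. Of the 10, 9 were tested, since Rnf43 was at 0.03 to 0.47 TPM and below the filter on low counts. None of the 9 was higher in d2-FVFp, against 6.96% of the 12943 tested genes, and 2 of 9 were lower, against 1.47%. The median log2 fold change of the 9 was -0.17, beside 0.01 over all tested genes.

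Lef1 was at 29.7 and 28.1 TPM in d2-FVFn and at 10 and 5.56 TPM in d2-FVFp. The groups did not overlap, and Lef1 was lower by a log2 fold change of -1.93 ± 0.26 (edgeR adjusted p = 0.00511), a call made under each alternative run. Sfrp1 was at 10 and 13.6 TPM in d2-FVFn and at 6.05 and 5.77 TPM in d2-FVFp. It was lower by a log2 fold change of -1.05 ± 0.21 (adjusted p = 0.0175), just past the fold threshold, and the call was lost without d2-FVFn replicate 2 (adjusted p = 0.151), without d2-FVFp replicate 2 (adjusted p = 0.0272, fold not past its threshold), and with limma on log2(TPM + 1). Sp5 was at 0.48 and 1.05 TPM in d2-FVFn and at 1.82 and 3.94 TPM in d2-FVFp, without overlap, but with a log2 fold change of 1.82 ± 0.57 it was not called (adjusted p = 0.0677). With the replicate number as a block it was called (adjusted p = 0.0013), as it was without the filter on low counts (adjusted p = 0.00267) and without d2-FVFp replicate 1 (adjusted p = 0.0347). Sfrp5, which differed most between the day 3 genotypes, was at 1.17 and 1.37 TPM in d2-FVFn and at 0.86 and 0.79 TPM in d2-FVFp, with a log2 fold change of -0.68 ± 0.47 (adjusted p = 0.353). The remaining genes, Axin2, Tcf7, Tcf7l1, Nkd1 and Notum, had log2 fold changes between -0.67 and 0.27, with none called. The 4 epiblast markers (Fgf5, Pou3f1, Dnmt3b and Otx2) were all lower in d2-FVFp as well, and their part in the difference of Lef1 was not tested.

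The rest of the pathway was described from 6 lists, each read against the shares of all tested genes given above. Their 13 calls between d3ko and d3con carry the same limit of clones as those of the 10 genes. With each clone's libraries summed or without both 75-base libraries 0 of the 13 were called (lowest adjusted p = 0.075 and 0.104), and without d3con replicate 3 there were 5 (Fzd6, Fzd8, Shisa2, Tcf7l2 and Wnt11). Of 12 genes of the destruction complex and beta-catenin, 2 rose in control cells, against 20.6% of all tested genes. Amer1, a binding partner of Apc, was among them (log2 fold change 2.11 ± 0.44). Between d3ko and d3con 0 of 12 were called, against 4.75% of all tested genes higher and 3.51% lower, so with 12 genes this count is near those shares. Of 18 receptor and receptor turnover genes, 7 rose and 2 fell in control cells, and the Frizzled receptor genes Fzd8 (-4.20 ± 0.44), Fzd5 (-2.50 ± 0.61) and Fzd6 (-1.74 ± 0.22) were lower in d3ko than in d3con on the log2 scale.

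Of 17 other secreted inhibitors and agonists 10 were tested, and 5 rose in control cells while 3 were lower in d3ko than in d3con. Dkk1, which blocks Lrp co-receptors, was at 248 ± 180 TPM in d3con (SD, n = 3) and at 8.77 ± 5.8 TPM in d3ko, a log2 fold change of -4.85 ± 0.84 (edgeR adjusted p = 0.0131). Shisa2, which retains Frizzled inside the cell, was at 60.1 ± 26 TPM in d3con and at 3.57 ± 1.24 TPM in d3ko, a log2 fold change of -4.10 ± 0.43 (adjusted p = 0.00438). Frzb, a relative of the Sfrp genes, was lower in d3ko by a log2 fold change of -3.13 ± 0.81 (adjusted p = 0.0407). None of the 10 was higher in d3ko, and the median log2 fold change of the list was -0.11. In the doxycycline series 8 were tested, 4 were higher in d2-FVFp, among them the Wnt-binding inhibitor Wif1 (3.86 ± 0.59 on the log2 scale), and 1, Sfrp4, was lower.

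Of 12 other Tcf, corepressor and coactivator genes 11 were tested, and 1 was higher and 2 were lower in d3ko than in d3con. Tcf7l2, the remaining Tcf gene, was at 76.8 ± 30.1 TPM in d3con and at 8.97 ± 4.63 TPM in d3ko, a log2 fold change of -3.11 ± 0.42 (edgeR adjusted p = 0.00907), and it was higher in d2-FVFp than in d2-FVFn by 1.68 ± 0.22 on the log2 scale (adjusted p = 0.00482). Tle2, a Groucho-type corepressor, was lower in d3ko by a log2 fold change of -2.77 ± 0.67 and higher in d2-FVFp by 2.54 ± 0.41, while its relative Tle4 was higher in d3ko by 1.61 ± 0.30.

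Of 16 other Wnt target genes 14 were tested, and 7 rose and 2 fell in control cells while 6 rose and 0 fell in knockout cells. Fgf8, a ligand of the primitive streak, rose by 10.08 ± 1.16 and 9.98 ± 1.22 on the log2 scale in the respective genotypes. Between the day 3 genotypes, Cdx1 was higher in d3ko (5.49 ± 1.06 on the log2 scale), Tnfrsf19 was also higher (2.22 ± 0.50), and Ascl2 was lower (-2.97 ± 0.48). Of 19 Wnt ligand genes 12 were tested, and 1, Wnt11, was lower in d3ko, by a log2 fold change of -3.56 ± 0.33 (edgeR adjusted p = 0.00297), with 33.7 ± 13.6 TPM in d3con and 2.89 ± 0.243 TPM in d3ko.

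**Figure D4:**
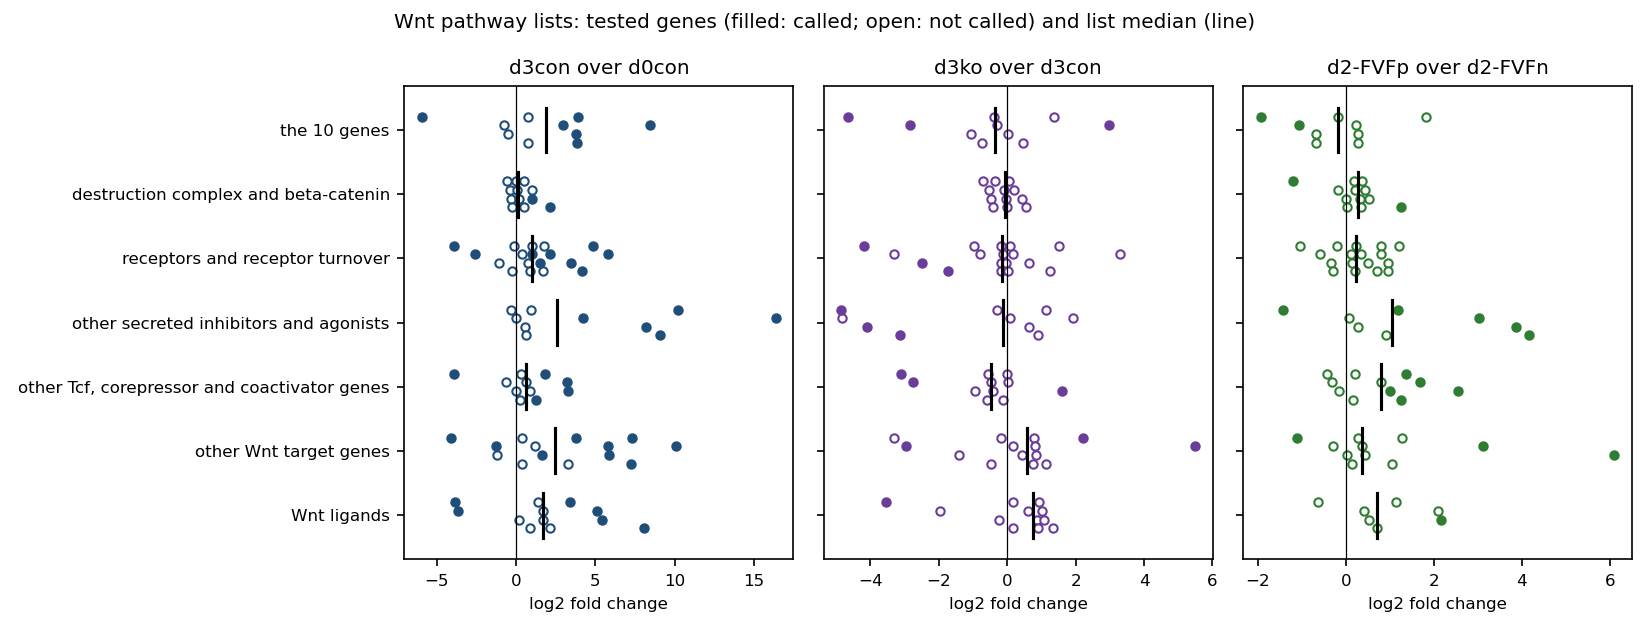
edgeR log2 fold changes (x axis) of the tested genes of the 10 and of the 6 Wnt pathway lists in d3con over d0con, d3ko over d3con and d2-FVFp over d2-FVFn; filled points were called, open points were not, and black lines mark list medians. In d3ko over d3con the called genes of the list of other secreted inhibitors and agonists lie between -4.85 and -3.13. Among the 10 genes, Sfrp5 (-4.67) and Sfrp1 (-2.83) were called lower and Notum (2.98) higher. Of the destruction complex list 0 of 12 were called, against 4.75% of all tested genes higher and 3.51% lower.

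Genes with the most similar pattern over the 14 libraries were ranked by the root mean square (RMS) difference of log2(TPM + 1) after each gene's mean was subtracted, among 11101 genes with a group mean of at least 5 TPM. Sfrp5 was nearest to Samd3 (0.43), Sox17 (0.61), a marker of definitive endoderm, and Pilra (0.62). Sfrp1 was nearest to Wnt11 (0.51), C8b (0.54) and Sec14l2 (0.58). Sp5 was nearest to the streak factor gene Eomes (0.44), then to Prdm6 (0.60) and Igf2 (0.62). Notum was nearest to Cltb (0.30), Pnp2 (0.36) and 1190005I06Rik (0.38), and Lef1 to Fam49a (0.44), Fam111a (0.45) and Lhpp (0.47). For Axin2, Nkd1 and Rnf43, whose levels are low, the nearest genes were Prelid2 (0.28), Mapk8ip3 (0.27) and 1110054M08Rik (0.22). The group means of Tcf7 and Tcf7l1 spanned under 2 on this scale, and no neighbours are given for them.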

How the data were processed

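Per the labels, the authors aligned reads to mm10 (GRCm38) with STAR and quantified each library with RSEM; versions were not stated. The deposited expected counts are estimated read numbers from RSEM without scaling. The deposited TPM values were scaled by the authors for gene length and library total. Effective lengths show that replicate 1 of d3con and d3ko held 75-base reads and the other libraries 50-base reads.

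Expected counts were rounded and tested with edgeR 4.0.16 (R 4.3.3) after TMM scaling, with 1 fit for the 10 con and ko libraries and another for the 4 doxycycline libraries, keeping genes with at least 1 CPM in at least 2 libraries. Replicates are separate labelled samples, so p-values measure the spread between these libraries. Standard errors (SE) were derived from each fold change and its F statistic. The alternatives included DESeq2 1.42.0 and limma 3.58.1. All 3 tools were tested on simulated counts, where DESeq2 made more false calls than edgeR in the fit of 10 libraries, so its additional calls are given beside those of edgeR only. Same-numbered day 0 and day 3 libraries of a genotype share a clone per the study's sample list, and clone was tried as a block. Deviations of these pairs from their group means correlated between -0.04 and 0.06.

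The genes and lists were chosen with earlier results of these data known. All 10 genes are named, and from each list up to 3 called genes per direction with the largest fold change were eligible. Positions and promoters are those of RefSeq for GRCm38.p6.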

Additional observations from a re-analysis of the deposited data

How the results depend on the processing

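Of the 17 calls of the 10 genes, 8 were made under each alternative run, and no call changed sign. From d3con over d0con all 6 calls held in each setting. For d3ko over d0ko (6 called) a test against a 2-fold change called 2, and leaving out single libraries gave 2 to 5. For d3ko over d3con (3 called), a fit of the 2 groups alone called 1, and summing each clone's libraries or leaving out both 75-base libraries called 0, and leaving out single libraries gave 0 to 3. Over all tested genes this comparison called 1148, and 67, 1 and 1 in those 3 settings and 80 without d3con replicate 3. The interaction (0 called) had 3 calls with DESeq2 and 4 without both day 3 libraries numbered 2, and 0 to 1 when single libraries were left out. For d2-FVFp over d2-FVFn (2 called), the 2-fold test and limma with either pseudocount (1 or 0.1) called 1, and leaving out single libraries gave 1 to 3. For d0ko over d0con, leaving out single libraries gave 0 to 0. The clone block and the exclusion of pairs of libraries were chosen after seeing the data. Without the libraries numbered 2, each day 3 group holds a single clone.

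With the replicate number as a block, 6, 6, 3, 0, 0 and 3 were called in d3con over d0con, d3ko over d0ko, d3ko over d3con, d0ko over d0con, the interaction and d2-FVFp over d2-FVFn. The added call was Sp5. Deviations from group means correlated at 0.54, 0.29 and -0.01 for d3con and d3ko libraries of the same number, so the numbers were not taken as pairs across genotypes, though replicate 1 of both groups also shares its read length. The doxycycline libraries correlated at 0.29, which with 2 libraries a group is 1 value for both pairs and cannot decide whether they are pairs. They were left unpaired in the main fit. With the block 1497 of all tested genes were called in d2-FVFp over d2-FVFn, against 1091 without it. The clone block, run for both comparisons over time and the interaction, changed no call of the 10 genes.

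Signs turned in 40 values, all of genes that were not called. In d3ko over d3con, Tcf7 was -0.01 (no filter), 0.00 (mean count of at least 50), -0.06 (libraries of one clone summed). Leaving out single libraries spread Tcf7 from -0.13 to 0.25 in d3ko over d3con. In d0ko over d0con, Tcf7 was -0.02 (DESeq2), -0.02 (median-of-ratios scaling), -0.02 (no filter). Tcf7l1 was 0.03 (limma on log2(TPM + 1)), 0.03 (limma on log2(TPM + 0.1)). Leaving out single libraries spread Tcf7 from -0.17 to 0.20, Rnf43 from -0.73 to 0.10, Axin2 from -0.34 to 0.62, Tcf7l1 from -0.12 to 0.12, Sp5 from -1.25 to 0.11, Sfrp5 from -0.33 to 1.35 in d0ko over d0con. In genotype by day interaction, Tcf7 was -0.01 (mean count of at least 50), -0.02 (limma on log2(TPM + 1)), -0.02 (limma on log2(TPM + 0.1)), -0.07 (libraries of one clone summed), -0.03 (clone block). Sp5 was -0.08 (limma on log2(TPM + 1)), 0.00 (limma on log2(TPM + 0.1)), -0.07 (without both day 3 libraries numbered 2). Leaving out single libraries spread Axin2 from -0.16 to 0.80, Tcf7 from -0.19 to 0.24, Sp5 from -0.51 to 0.86 in genotype by day interaction. Leaving out single libraries spread Notum from -0.09 to 0.70 in d2-FVFp over d2-FVFn.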
